A study of Mus musculus with 4 samples.

Results

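The 9 membrane adenylyl cyclase genes Adcy1 to Adcy9 were taken by symbol from the 22558 genes of the deposited table, and all 9 were found. The samples were whole eyes of 6-week-old mice of the genotype Abca4-/-Rdh8-/-, named for the genes of a photoreceptor retinaldehyde flippase and a photoreceptor retinol dehydrogenase, and per the labels the control carries both alleles too. Over the whole gene, Abca4 had 34.3 to 56.3 FPKM and Rdh8 10.5 to 14.2 FPKM in the 4 samples, and such values do not check the deleted parts. The groups were eyes with no light, and eyes collected 3 h, 24 h and 7 days after a light exposure, each group 1 sample of eyes from 3 mice. The table holds 1 FPKM value (fragments scaled to transcript length and library size) per gene and condition, so no difference below has a replicate check and no test was possible. The sources used here give neither the strength of the light nor the time of day at which eyes were collected. The labels name the tissue as whole eye while the extraction protocol speaks of retinas, and the table holds both the rod gene Pde6b (419.4 FPKM in the control) and the lens gene Cryaa (25471 FPKM).

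Membrane adenylyl cyclases convert ATP to cyclic AMP, the second messenger that activates protein kinase A, the Epac exchange factors and cyclic nucleotide-gated channels. The stimulatory G protein Gs activates every membrane isoform, and the isoforms differ in what else they answer to. Adcy1, Adcy3 and Adcy8 form the group stimulated by calcium and calmodulin, although Adcy3 is only weakly so in cells. Adcy2, Adcy4 and Adcy7 are stimulated by G protein beta-gamma subunits together with Gs. Adcy5 and Adcy6 are inhibited by Gi and by calcium, and Adcy9 is the isoform least sensitive to the plant diterpene forskolin. In the retina cyclic AMP is under control of dopamine and of the circadian clock, and in rat retina the Adcy1 transcript is known to follow a daily rhythm.

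RefSeq promoter sequences (build GRCm38.p6, matched by symbol) were at hand for 7 of the 9 genes, in 10 windows. The 250 bases before the transcript start are shown for Adcy1 and for 1 of 3 starts of Adcy7, since these genes lay farthest from the control in opposite directions. Capitals mark a match to a searched motif. In Adcy1 this is the E-box CACGTG, which the clock factors CLOCK and BMAL1 bind. In Adcy7 it is the half-site of the cyclic AMP response element, TGACG, on the reverse strand.
Adcy1, chr11:7063183-7063432, plus strand: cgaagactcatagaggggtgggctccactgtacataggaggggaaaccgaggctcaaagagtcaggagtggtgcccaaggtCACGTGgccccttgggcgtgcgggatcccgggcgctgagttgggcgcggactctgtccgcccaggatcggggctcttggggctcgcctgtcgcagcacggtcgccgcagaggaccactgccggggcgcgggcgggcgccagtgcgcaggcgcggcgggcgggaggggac
Adcy7, chr8:88282742-88282991, plus strand: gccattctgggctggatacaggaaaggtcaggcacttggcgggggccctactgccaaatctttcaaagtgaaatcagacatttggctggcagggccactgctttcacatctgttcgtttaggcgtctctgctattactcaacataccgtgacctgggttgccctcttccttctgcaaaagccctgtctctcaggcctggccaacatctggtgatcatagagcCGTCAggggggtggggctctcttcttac
The E-box began 169 bases before the Adcy1 start, and it was held by 6.02% of 32851 promoter windows of the same length. The half-site began 28 bases before the Adcy7 start shown, while the other 2 Adcy7 windows held none. It also began 24 bases before the Adcy9 start, and 17.8% of all windows hold it on either strand. No window of these 7 genes held the full element TGACGTCA (1.55% of all windows), the D-box TTATGTAA (0.819%), the photoreceptor CRX core TAATCC (6.25%) or the EGR site GCGTGGGCG (0.536%), each searched on both strands. The half-site is part of the full element. Such matches describe letters in a window and do not show that a factor binds there. The Adcy1 window was 71.2% G and C, against a median of 52.4% over all windows.

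Adcy1 and Adcy6 were the most abundant cyclase transcripts in every sample, and Adcy4 was the least abundant. Since FPKM is scaled to transcript length, the levels of different genes can be set side by side. In the control the order of FPKM levels was Adcy6 (25.4), Adcy1 (23.6), Adcy2 (13.6), Adcy5 (8.45), Adcy7 (5.71), Adcy9 (5.03), Adcy3 (3.25), Adcy8 (2.61) and Adcy4 (1.69). An approximate counting error was derived from the smallest values of olfactory receptor genes, taken as 1 fragment. On that basis the values rested on about 130 fragments for Adcy4 to about 2121 for Adcy6 in the control, with a counting error of 8.76% to 2.17%. In the control, Adcy7 and Adcy9 lay 0.685 FPKM apart with a counting standard error of 0.353, and Adcy6 and Adcy1 lay 1.81 apart with a standard error of 0.775. Adcy3 and Adcy8 lay 0.639 apart there, with a standard error of 0.263. These neighbours are ordered only weakly, and the errors leave out the spread between animals. At 3 h and 24 h Adcy1 stood above Adcy6, by 5.17 and 18.6 FPKM (counting standard errors 0.881 and 0.72). At 7 days they lay 0.134 FPKM apart (0.535) and could not be ordered. Adcy1 stood at the 80.5 percentile of protein-coding genes with a mean of at least 1 FPKM, and Adcy4 at the 5.1 percentile.

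**Figure D1:**
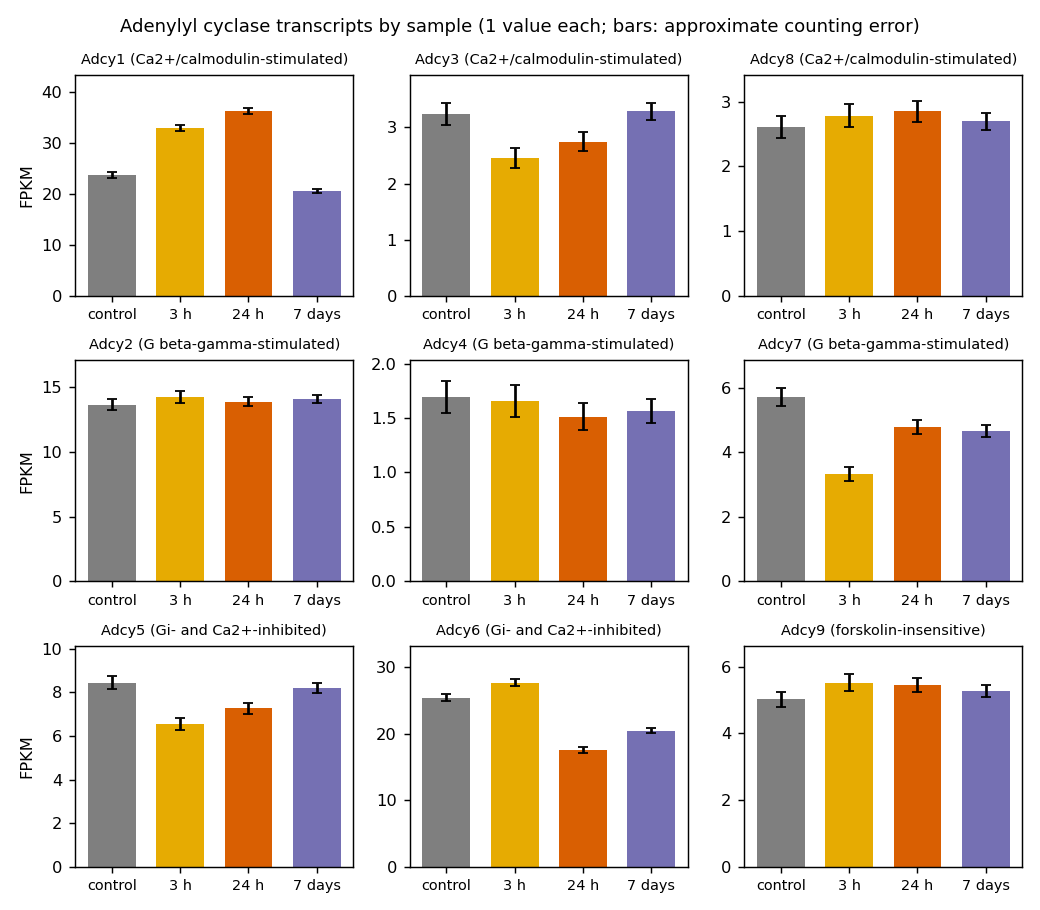
FPKM (y axis, from 0, scaled per panel) of each of the 9 genes in the 4 samples (x axis), 1 deposited value per bar, with error bars of 1 approximate counting standard error. Adcy1 is highest at 24 h (36.1 FPKM), Adcy6 lowest at 24 h (17.6 FPKM) and Adcy7 lowest at 3 h (3.33 FPKM), while Adcy2 stays between 13.6 and 14.2 FPKM.

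Each log2 change is the log2 ratio of values to which 1 FPKM was added, which understates the differences of low genes. All 9 genes had a mean of at least 1 FPKM over the 4 samples, as did 14194 genes in all, which form the background. No cyclase gene was past 1 log2 unit in any comparison. Of all genes, 0.789% were past it in either direction at 3 h against the control, 1.11% at 24 h, 0.599% at 7 days, 0.951% at 24 h against 3 h and 0.81% at 7 days against 24 h. A smaller limit of 0.5 log2 units was therefore used beside it. At 3 h, none of the 9 was at least 0.5 higher (2.56% of all genes) and 1 was at least 0.5 lower (1.44%). At 24 h, 1 was higher (2.71%) and 1 lower (2.94%). At 7 days no cyclase was past 0.5 in either direction, against 1.19% of all genes higher and 0.986% lower. From 3 h to 24 h none was higher (1.92%) and 1 lower (3.09%), and from 24 h to 7 days none was higher (1.66%) and 1 lower (1.97%). Each of these counts rests on a single gene, and those genes were Adcy1, Adcy6 and Adcy7.

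The deposited values of the family showed no common direction. The median log2 change was 0.06 at 3 h, -0.10 at 24 h and -0.04 at 7 days against the control, beside 0.02, 0.01 and 0.00 over all 14194 genes, and the 3 h median turned to -0.11 (all genes -0.14) after rescaling without lens, skeletal muscle, erythroid and surface epithelium genes. At 3 h, 5 genes lay above 0 and 4 below, and at 24 h and at 7 days 4 lay above and 5 below. Under that rescaling 1 lay above and 8 below at 3 h, 3 above and 6 below at 24 h, and all 9 below at 7 days, so the split by sign depends on the scaling. Within 0.2 log2 units of the control lay 5 of the 9 at 3 h, 6 at 24 h and 7 at 7 days, beside 73.8%, 72.8% and 81.7% of all genes.

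**Figure D2:**
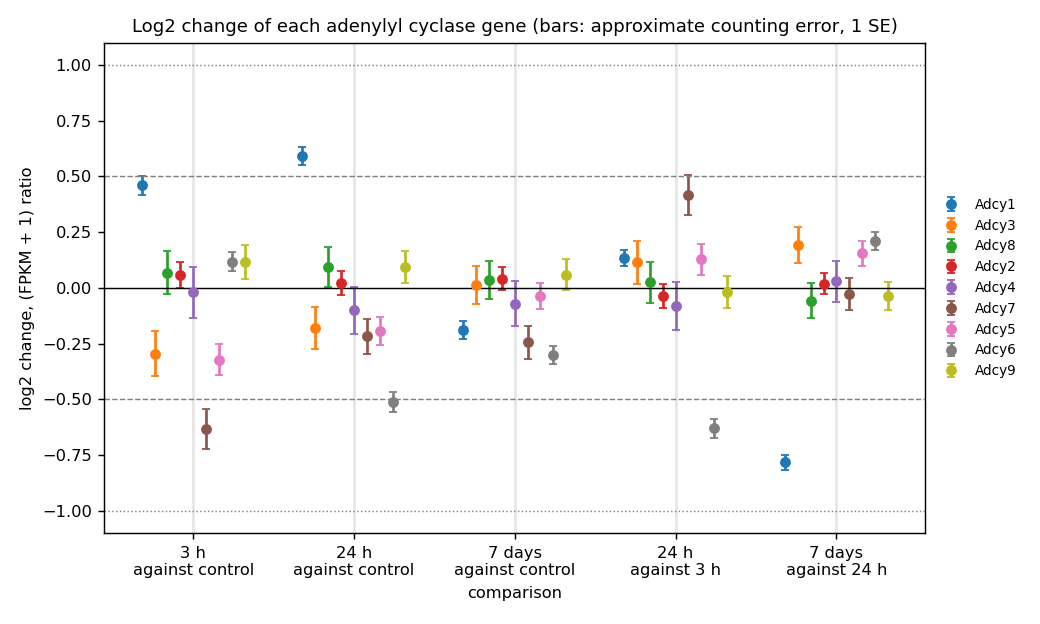
Log2 change on the (FPKM + 1) scale (y axis) of each gene (colours) in the 5 comparisons (x axis), with bars of 1 approximate counting standard error and lines at 0.5 (dashed) and 1 (dotted) log2 units. Adcy1 lies at 0.59 at 24 h against the control and at -0.78 at 7 days against 24 h, Adcy7 at -0.63 at 3 h against the control, and no gene reaches 1.

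Among the calcium-stimulated isoforms, Adcy1, a neuronal cyclase of brain and retina, had the widest range, with 1.755-fold between its highest and lowest sample. Its FPKM level was 23.6 without light and 32.9, 36.1 and 20.6 at the successive times. The 3 h and 24 h samples were thus high, and the 7-day sample lay slightly under the control. Against the control the log2 change was 0.46 at 3 h (counting standard error 0.04), 0.59 at 24 h (0.04) and -0.19 at 7 days (0.04). These are ratios of 1.39, 1.53 and 0.87. Of all genes, 98.1% lay below Adcy1 at 24 h against the control. From 24 h to 7 days its log2 change was -0.78 (0.03), and 0.831% of all genes lay below it in that comparison, which shares the 24 h sample with the one before.

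The other calcium-stimulated isoforms did not share this course. Adcy3, the cyclase of olfactory and primary cilia, was at 3.25 FPKM without light, 2.46 after 3 h, 2.75 after 24 h and 3.29 after 7 days. It was lowest at 3 h, with a log2 change of -0.30 (counting standard error 0.10), and at 7 days it lay within counting error of the control. Adcy8, which like Adcy1 acts in neurons as a calcium sensor, was at 2.61, 2.78, 2.85 and 2.70 FPKM. All samples of Adcy8 lay within 1.09-fold of each other, and its log2 changes against the control, from 0.04 to 0.09, were at most 1.04 times their counting standard errors of 0.09 to 0.10.

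Among the isoforms stimulated by beta-gamma subunits, Adcy7 stood out. Adcy7, a cyclase prominent in blood and immune cells, was at 5.71 FPKM without light, 3.33 after 3 h, 4.78 after 24 h and 4.67 after 7 days. The control was high and the 3 h sample low, with the later samples in between. The log2 change was -0.63 at 3 h (counting standard error 0.09), -0.22 at 24 h (0.08) and -0.24 at 7 days (0.07). At 3 h only 0.719% of all genes lay below it, and from 3 h to 24 h it was 0.42 (0.09) higher. Adcy2, a brain isoform, was the steadiest member, at 13.6, 14.2, 13.9 and 14.1 FPKM. Its log2 changes against the control were between 0.02 and 0.06, with counting standard errors of 0.05 to 0.06. Adcy4, known from vascular endothelium, was at 1.69, 1.66, 1.51 and 1.57 FPKM, and its differences were within their counting standard errors.

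Of the isoforms inhibited by Gi and calcium, Adcy6 was lower at the later times. Adcy6, a widely expressed cyclase prominent in heart and kidney, was at 25.4 FPKM without light, 27.7 after 3 h, 17.6 after 24 h and 20.5 after 7 days. The control and 3 h samples were high and the 24 h and 7-day samples low. The log2 change was 0.12 at 3 h (counting standard error 0.04), turning to -0.06 under that rescaling. It was -0.51 at 24 h (0.04) and -0.30 at 7 days (0.04). From 3 h to 24 h it was -0.63 (0.04), with 1.75% of all genes below. Adcy5, the main cyclase of the striatum and also a cardiac isoform, was at 8.45, 6.56, 7.27 and 8.21 FPKM. It was lowest at 3 h, with a log2 change of -0.32 (0.07), and at 7 days the change was -0.04 (0.06). Adcy9, broadly expressed, was at 5.03, 5.53, 5.44 and 5.28 FPKM, within 1.1-fold over all samples.

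The make-up of the family therefore differed between samples. The summed level of the 9 genes was 89.4 FPKM without light, 97.1 after 3 h, 92.2 after 24 h and 80.8 after 7 days. Adcy1 made up 26.4% of it without light, 33.8% after 3 h, 39.2% after 24 h and 25.5% after 7 days. Adcy6 made up 28.4%, 28.5%, 19.1% and 25.3%. The ratio of Adcy1 to Adcy6, which does not depend on how samples are scaled, was 0.93 without light, 1.19 after 3 h, 2.06 after 24 h and 1.01 after 7 days. By group, the calcium-stimulated isoforms took 33.0% of the family sum in the control and 45.3% at 24 h. Adcy5 and Adcy6, inhibited by Gi and by calcium, took 37.9% and 26.9%. The isoforms stimulated by beta-gamma subunits took 23.5%, 19.8%, 21.9% and 25.1% over the 4 samples.

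**Figure D3:**
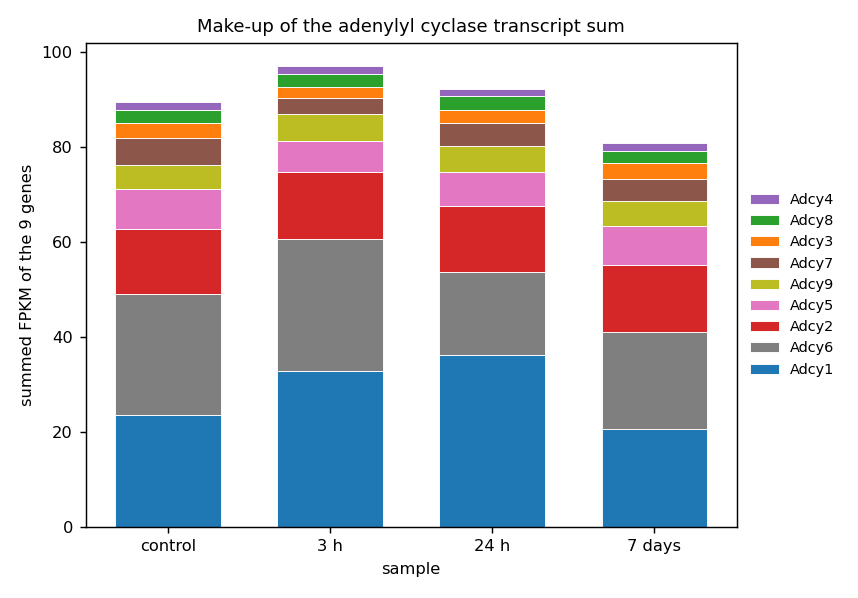
Summed FPKM (y axis, from 0) of the 9 genes in each sample (x axis), stacked by gene from the highest mean at the bottom. The Adcy1 segment is 39.2% of the sum at 24 h against 26.4% in the control, and the Adcy6 segment is 19.1% against 28.4%.

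The make-up of the tissue differed between samples too, and in bulk RNA fewer cells of a type and less RNA per cell cannot be told apart. The sum of 19 rod markers was 17379 FPKM without light, 15016 after 3 h, 11011 after 24 h and 11855 after 7 days, and 17 of 18 with a mean of at least 1 FPKM were below the control at 24 h. The sum of 24 skeletal muscle markers was 2773, 2977, 1809 and 2407 FPKM, and all 24 were below the control at 24 h. Both sums were lowest at 24 h, where Adcy1 was highest and Adcy6 lowest. Adcy1 was also high at 3 h, where the muscle sum was highest, and below the control at 7 days, where the rod sum was still low. The sum of 15 endothelial and pericyte markers was 216 FPKM in the control, 174.1 at 3 h and 191.6 at 24 h, with 14 and 13 of 15 lower. The sum of 11 fibroblast markers was 2211, 1601 and 1556 FPKM, with 10 of 11 lower at both times. At 7 days the endothelial and pericyte sum was 221.9 FPKM and the fibroblast sum 1958 FPKM. Adcy7 and the endothelial and pericyte sum were both lowest at 3 h. The fibroblast sum was lowest at 24 h, where Adcy7 was at 4.78 FPKM. The sum of 17 microglia and macrophage markers was 137.8 FPKM without light, 150.7 after 3 h, 146.9 after 24 h and 303.1 after 7 days, and 16 of 17 were higher at 7 days, where Adcy7 was below the control. The sum of 12 bipolar cell markers was 521, 469, 472 and 563 FPKM over the 4 samples. For 16 amacrine, horizontal and ganglion cell markers it was 313, 285, 277 and 298 FPKM. For 8 adipocyte markers it was 96.8, 130.8, 114.4 and 107.5 FPKM. Of the 16 marker lists, the rest are not described here. None of the markers in the lists given was at 0 in any sample, and the part of tissue make-up in the cyclase values was not tested.

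Of 13 listed circadian clock genes, 11 were found with a mean of at least 1 FPKM. Their median log2 changes were 0.39 at 3 h, 0.50 at 24 h and 0.43 at 7 days, with 9, 9 and 8 of them above 0. Of these, 2 are given, chosen after their values were seen. Per1, a clock repressor whose promoter answers to cyclic AMP, was at 6.89 FPKM without light, 14.6 after 3 h, 11.0 after 24 h and 8.25 after 7 days. Arntl, which encodes BMAL1, was at 25.5, 26.0, 18.3 and 16.3 FPKM. The part of collection time in the Adcy1 values was not tested. In the 7-day sample the Y-linked Kdm5d was at 1.38 FPKM and Eif2s3y at 6.80 FPKM, against at most 0.0137 FPKM elsewhere. Xist, made from the inactive X chromosome of females, was at 37.1 FPKM there and at 47.2 to 53.8 elsewhere. The 7-day sample thus held RNA of both sexes, so sex and time cannot be told apart in comparisons with it. No cyclase gene lies on a sex chromosome.

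The patterns closest to Adcy7, which had the largest change against the control, were those of Pfkl, Tnfrsf19 and Egfl7 among 10168 protein-coding genes with a mean of at least 5 FPKM. Likeness was the Euclidean distance over the 3 log2 changes against the control, and it was 0.12, 0.16 and 0.17. The added 1 FPKM shrinks the changes of a low gene such as Adcy7 more than those of Pfkl, so the distance depends on it. Pfkl, the liver-type phosphofructokinase, was at 77.1, 49.7, 69.2 and 60.6 FPKM in the samples taken in order of time. Egfl7 is also among the endothelial and pericyte markers above. For Adcy1, added after its values were seen, the closest were Ier3 (0.10), Tnpo1 (0.17) and Polr2a (0.19). Ier3, an immediate early gene, was at 41.4, 55.9, 64.3 and 38.6 FPKM. For Adcy6, also added afterwards, they were Igsf9 (0.06), Tln2 (0.07) and Cds1 (0.08).

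Around the cyclases, 136 genes of the cyclic AMP pathway in 10 lists were found, and 97 passed the level filter. None of the 97 was past 1 log2 unit in any of the 5 comparisons. At least 0.5 higher were 3 at 3 h, 1 at 24 h and none at 7 days, and at least 0.5 lower were none, 6 and 2. As shares of the 97 these are 3.09%, 1.03% and 0% higher and 0%, 6.19% and 2.06% lower. Over all genes the shares were 2.56%, 2.71% and 1.19% higher and 1.44%, 2.94% and 0.986% lower. Most of the pathway thus lay near the control, with medians of 0.00, -0.03 and 0.02.

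Upstream of the cyclases, Gnas, which encodes the Gs alpha subunit, was at 516, 464.8, 506.9 and 522.8 FPKM, and the related Gnal was at 3.77, 3.39, 4.35 and 3.84 FPKM. Neither was past 0.5 log2 units. Of 7 alpha subunits of the Gi class, 2 were at least 0.5 lower at 24 h, and both are transducins, which act on a phosphodiesterase rather than on cyclases. Gnat1 of rods, also among the rod markers above, went from 2679 to 1581 FPKM and Gnat2 of cones from 42.1 to 25.8 FPKM. The inhibitory subunits Gnai1, Gnai2, Gnai3, Gnao1 and Gnaz had log2 changes between -0.20 and 0.15 at 3 h and between -0.10 and 0.11 at 24 h. At 7 days the range was wider, from -0.40 for Gnaz to 0.24 for Gnai2. Among 14 receptors that act through Gs, Crhr2, a receptor for urocortins, was 0.80 log2 units lower at 24 h, at 2.25 FPKM in the control and 0.874 there. Among 19 receptors that act through Gi and Go, Adra2c and Grm6 were lower at 24 h, by log2 changes of -0.54 and -0.59, and Sstr4 at 7 days by -0.56. Drd4, the dopamine receptor of photoreceptors, was at 84.0, 67.7, 76.8 and 65.1 FPKM, within 0.5 log2 units of the control throughout.

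Downstream, the phosphodiesterases that degrade cyclic AMP had 1 of 14 genes past 0.5 against the control. This was Pde3b, at 2.17 FPKM in the control and 3.86 at 3 h. Of 8 protein kinase A subunits and inhibitors, Pkig, an inhibitor of the kinase, was at 26.3, 26.2, 47.7 and 29.0 FPKM. It was high at 24 h, with a log2 change of 0.83, the largest against the control in these lists, while the catalytic subunit Prkaca was at 58.5, 55.8, 55.6 and 60.7 FPKM. The CREB list had a median of 0.09 at 3 h, 0.15 at 24 h and -0.04 at 7 days over 8 genes, none past 0.5. Crem, whose inducible repressor form is a cyclic AMP target, was at 5.13, 7.40, 7.44 and 5.85 FPKM. Creb1 was at 13.7, 15.6, 17.8 and 13.3 FPKM, highest at 24 h, while the 3 h and 24 h values of Crem were nearly equal. Of 10 A-kinase anchoring proteins none was past 0.5 against the control, and of 5 Epac and Popeye effectors Popdc2 was lower at 24 h (-0.50). Among 10 other regulators Ric8b, a chaperone of Gs-type subunits, was at 35.6 FPKM in the control and 56.1 at 3 h, a log2 change of 0.64. The soluble cyclase Adcy10, no member of the membrane family, was at 0.0663 FPKM or less in every sample.

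**Figure D4:**
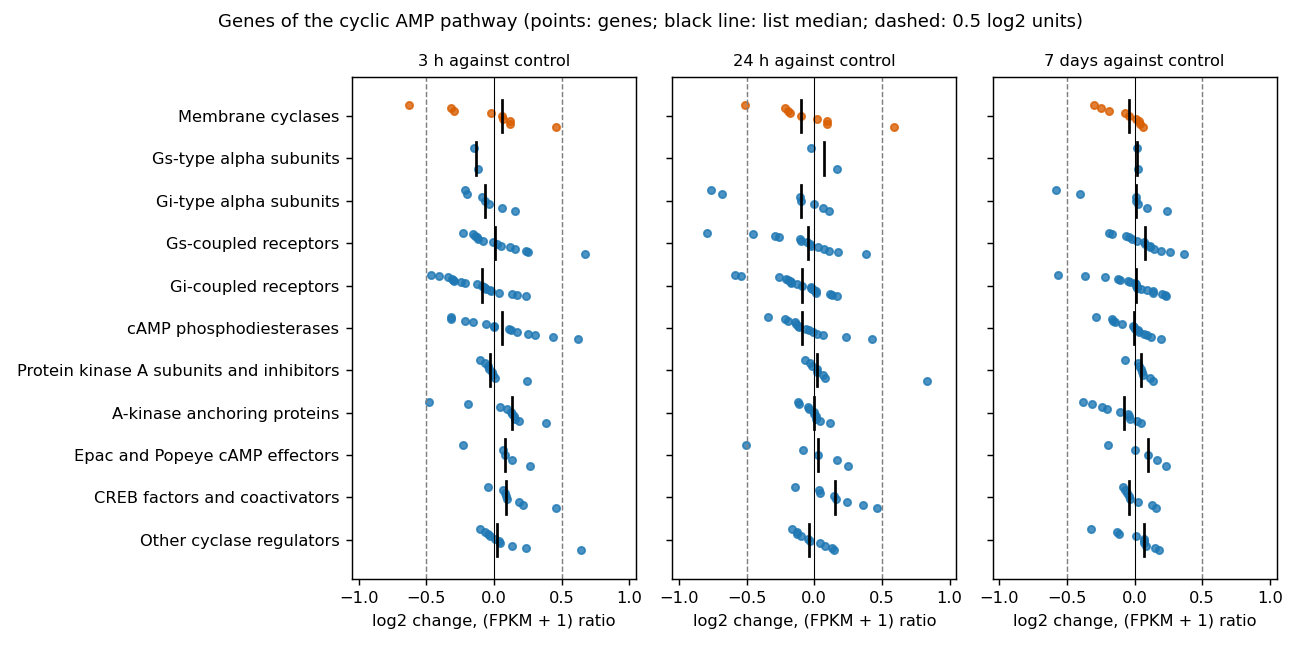
Log2 change on the (FPKM + 1) scale (x axis) against the control at 3 h, 24 h and 7 days for the 9 membrane cyclases (orange) and the 97 kept genes of 10 pathway lists (blue), 1 point per gene, with the list median as a black line and dashed lines at 0.5. Most points lie within 0.5 of 0, and Pkig at 0.83 at 24 h lies farthest out.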

How the data were processed

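The submitters' processing notes name the build mm9, Cuffdiff 2.2.1, TopHat2 (version 2) and bcl2fastq 1.8.3, and the design text names Cufflinks. The authors deposited FPKM, 1 value per gene and condition. Not given in the sources used here is whether that is 1 pooled library or a mean over 3, nor the annotation, the scaling or any use of strand. The FPKM sums of the samples ran from 626973 to 680305.

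With 1 value per group no test was run. Log2 changes used a pseudocount of 1 and the genes whose FPKM averaged at least 1. RefSeq tables (GRCm38.p6) gave biotypes for 22327 of 22558 symbols (99.0%) and the promoter sequences. Read counts were not used here. As an approximate depth, 1 fragment was taken as the median value of olfactory receptor genes above 0 in a single sample (0.0448, 0.0467, 0.0349 and 0.0255 FPKM in order of time, from 17, 14, 18 and 20 genes), scaled by coding length (median 939 bases, GENCODE M21). Its errors cover counting only.

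All 9 members were to be named, with pathway genes past a limit or of high level, and the 3 genes nearest in pattern to the member of largest change. Further pathway genes were named after their values were seen, and the values of a few are not reported here. Members and lists were chosen with earlier results of these data known. The calculation was tested on simulated data. Python 3.11.15, pandas 2.3.3 and numpy 2.4.6 were used. Alternatives covered the filter (none, or a mean of at least 5 FPKM), a pseudocount of 0.1 and 3 rescalings, by the median ratio or to the same sum without 4 tissue lists, with or without small RNA genes.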

Additional observations from a re-analysis of the deposited data

Results flagged for a closer look

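Adcy1 and Adcy6 had log2 changes of opposite sign at different times against the same control, each at least 0.1 from 0, and neither difference was tested. For Adcy1 the 24 h value was 0.59 and the 7-day value -0.19. For Adcy6 it was 0.12 at 3 h and -0.51 at 24 h, and the 3 h value turned to -0.06 after rescaling without lens, skeletal muscle, erythroid and surface epithelium genes.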

How the results depend on the processing

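No cyclase gene was past 1 log2 unit under any of the 6 alternatives. The count past 0.5 in the comparison of 24 h with 3 h was 2 in place of 1 with a pseudocount of 0.1, where Adcy7 reached 0.51. At 3 h against the control it was 0 in place of 1 with a mean of at least 5 FPKM, because that filter leaves 5 of the 9 genes and drops Adcy7. The other counts past 0.5 were unchanged. Rescaling without lens, skeletal muscle, erythroid and surface epithelium genes shifted the 3 h sample by -0.18, the 24 h sample by -0.07 and the 7-day sample by -0.11 log2 units. The median of the 9 genes at 3 h then turned from 0.06 to -0.11, beside -0.14 over all genes. With small RNA genes left out as well, the shifts were -0.07, -0.04 and -0.05. Over all alternatives Adcy1 ranged from 0.28 to 0.47 at 3 h, from 0.53 to 0.61 at 24 h and from -0.29 to -0.19 at 7 days. Adcy6 at 24 h ranged from -0.57 to -0.51, and Adcy7 at 3 h from -0.77 to -0.63. Adcy2, Adcy6, Adcy8 and Adcy9 changed sign at 3 h, Adcy2 at 24 h, and Adcy2, Adcy3, Adcy8 and Adcy9 at 7 days. Depth limits Adcy4 most, at about 122 fragments at 3 h. No paired analysis was possible because each group holds 1 sample.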
